A study of Homo sapiens with 6 samples.

Results

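Followed here were 10 of the 58735 genes in the count table, namely SAA1, SAA2, SAA4, LCN2, PI3, SLPI, C3, IL6R, SOCS3 and STAT3. They were picked by name as serum amyloid A genes and other acute-phase genes that epithelia express, together with the receptor, transcription factor and feedback inhibitor of interleukin-6 signalling. The choice was made with results of the same comparison already known, so their own values are given as a description without a p-value. RNA was sequenced from 6 libraries of SW480, an established human colorectal adenocarcinoma line: 3 from control cells and 3 from cells with shRNA knockdown of CNOT7. Neither group was treated or irradiated. The knockdown line was made with a lentiviral vector and kept as a stable line. Whether it is a pool or a single clone, and which shRNA each library carries, is not stated in the sources used here. The labels call the cells SW480 whereas the paper names HCT116 for its RNA sequencing, and the labels were followed. The comparison asks which transcripts differ when the deadenylase CNOT7, a catalytic subunit of the CCR4-NOT complex that shortens poly(A) tails, is reduced.

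The acute-phase response is the change in secreted proteins that follows infection or injury. Interleukin-6 binds IL6R, the complex signals through JAK kinases to the transcription factor STAT3, and STAT3 acts with NF-κB and C/EBP factors on acute-phase promoters, while SOCS3 shuts the receptor kinases off. The liver supplies most of these proteins to plasma, but intestinal and airway epithelia make local forms as well. Serum amyloid A proteins are small apolipoproteins of high-density lipoprotein that carry retinol and attract leukocytes. LCN2 withholds iron from bacteria by binding their siderophores, PI3 (elafin) and SLPI inhibit neutrophil proteases, and C3 is the central component of complement.

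Total counts ran from 23788451 to 29104872 per library, and 17574 genes passed the filter on low counts, all 10 members among them. CNOT7 itself had 4346, 4445 and 4405 counts in the control libraries and 1222, 1303 and 1150 in the knockdown libraries, so every library matched its label. In CPM, the count scaled to the size of the library by the TMM method, its mean was 179 ± 11.3 (SD, n = 3) in control cells and 43.1 ± 4.31 (n = 3) in knockdown cells, a log2 fold change of −2.05 (SE 0.0734, edgeR adjusted p = 2.64e-12). The labels do not say whether the numbered libraries came from separate cultures, so p-values measure the spread between these samples only, which may be technical. Of 10 markers of colorectal epithelium 8 passed the filter, while CDX1 was at 0 in all control libraries and neither it nor KRT20 exceeded 4 counts in any library. The markers summed to 5555 to 5972 CPM in control and 5133 to 5684 CPM in knockdown cells, most of it from keratins. KRT8 and KRT19 were called lower (log2 fold change −0.15 and −0.18, edgeR adjusted p = 0.0414 and 0.0212), and CDH1 and VIL1 higher (0.51 and 0.72, edgeR adjusted p = 1.55e-04 and 2.93e-05). Together 6 hepatocyte markers reached at most 0.516 CPM in any library, with TTR at 0 in all of them. The 8 leukocyte markers summed to 0.645 to 1.21 CPM in control and 1.59 to 1.98 CPM in knockdown libraries, with MPO at 0 throughout and PTPRC at 0 in 5 of the 6 libraries. The 8 fibroblast and endothelial markers summed to 9.5 to 11.4 CPM in control and 11.8 to 12.3 CPM in knockdown libraries, with COL3A1 and DCN at 0 throughout. The leukocyte and the fibroblast and endothelial sums were higher in all knockdown libraries, and their part in the results below was not tested. In bulk RNA, fewer cells of a type and less RNA per cell cannot be told apart.

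SAA1 and SAA2 were the members that fell most. In human the acute-phase serum amyloid A genes SAA1 and SAA2 and the constitutive SAA4 lie side by side on chromosome 11 (GRCh38, GENCODE release 29). SAA1 (ENSG00000173432) spans 18266174 to 18269977 on the plus strand, SAA2 (ENSG00000134339) 18239223 to 18248643 and SAA4 (ENSG00000148965) 18231349 to 18236893, both on the minus strand. SAA1 and SAA2 are near-identical, which bears on how reads could be assigned to each. Their coding sequences of 366 bases differed at 11 positions (97.0% identical), and SAA4 matched them at 73.8% and 73.5% of aligned positions. The longest identical run covered 186 bases, from coding base 44 to 229. The stretch printed here, coding bases 204 to 323, was chosen because it holds 10 of the 11 differences, which are in capitals and leave 1 further difference in the rest of the coding sequence. The SAA1 stretch lies at chr11:18269307-18269809 on the plus strand and the SAA2 stretch at chr11:18245423-18245936 on the minus strand, and each interval includes an intron.
SAA1: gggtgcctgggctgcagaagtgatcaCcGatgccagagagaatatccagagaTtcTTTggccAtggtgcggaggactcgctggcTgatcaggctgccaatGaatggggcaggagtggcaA
SAA2: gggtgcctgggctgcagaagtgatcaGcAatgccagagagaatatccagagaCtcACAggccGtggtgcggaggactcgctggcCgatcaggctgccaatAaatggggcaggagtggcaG

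SAA1 was the most abundant member in control cells, with 207, 148 and 168 CPM in the 3 control libraries and 33.9, 24.9 and 39.5 CPM in the 3 knockdown libraries. The lowest control value was thus well above the highest knockdown value, although SAA1 varied more between libraries of a group than SAA2 did (coefficient of variation 17.3% and 22.4%). The mean fell from 174 ± 30.2 to 32.8 ± 7.35 CPM, which leaves 18.8% of the control level (log2 fold change −2.41, SE 0.130). SAA2 stood at 64.3, 72.4 and 59.9 CPM in control and 15.8, 13.7 and 15.0 CPM in knockdown libraries. Its groups did not overlap either, and its libraries were closer together (9.68% and 7.38%). Its mean went from 65.5 ± 6.34 to 14.8 ± 1.10 CPM, or 22.7% of control (log2 fold change −2.14, SE 0.0858). SAA4 was a low transcript, with 57, 80 and 73 counts in control and 22, 21 and 33 counts in knockdown libraries. That corresponds to 2.86 ± 0.613 and 0.883 ± 0.195 CPM, 30.9% of control, without overlap of the groups (log2 fold change −1.68, SE 0.247).

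Within the control group the library order was not shared by the 3 genes: SAA1 was highest in replicate 1, whereas SAA2 and SAA4 were highest in replicate 2. In the knockdown group all 3 were lowest in replicate 2. The ratio of SAA1 to SAA2 counts was 3.22, 2.04 and 2.81 in the control libraries and 2.14, 1.82 and 2.62 in the knockdown libraries. The ranges of the groups overlapped. SAA1 made up 66.1% to 75.6% of all serum amyloid A counts in control and 63.1% to 70.9% in knockdown libraries.

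How reads shared by these genes were counted bears on each single value, and reads dropped as ambiguous would be missing from their sum as well. In the annotation, 46.6% of SAA1 windows of 50 bases also occur in another gene, which drops to 28.5% at 100 bases and 13.2% at 150 bases, the last 2 shared with SAA2 and the SAA2-SAA4 readthrough gene. The read length is not given in the sources used here. For SAA2 the shares were 20.5%, 15.0% and 9.21%, and for SAA4 they were 63.4%, 60.5% and 57.1%, because 476 of its 727 exonic bases lie inside SAA2-SAA4. Reads in such bases may be dropped or assigned to either gene, so the values of SAA1, SAA2 and SAA4 as separate genes are uncertain to that extent. The readthrough row held only 11, 2 and 1 counts in control and 1, 3 and 2 counts in knockdown libraries. The pseudogene SAA3P had a single count in 1 knockdown library.

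When the 4 rows SAA1, SAA2, SAA4 and SAA2-SAA4 were added up, the locus gave 274, 224 and 231 CPM in control and 50.6, 39.4 and 55.7 CPM in knockdown libraries. The sum therefore fell from 243 ± 27.3 to 48.6 ± 8.31 CPM, to 19.99% of control, a 5.003-fold decrease (log2 fold change −2.32, SE 0.10). The plot of levels by library shows the separation of the groups for each member on a common scale.

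**Figure D1:**
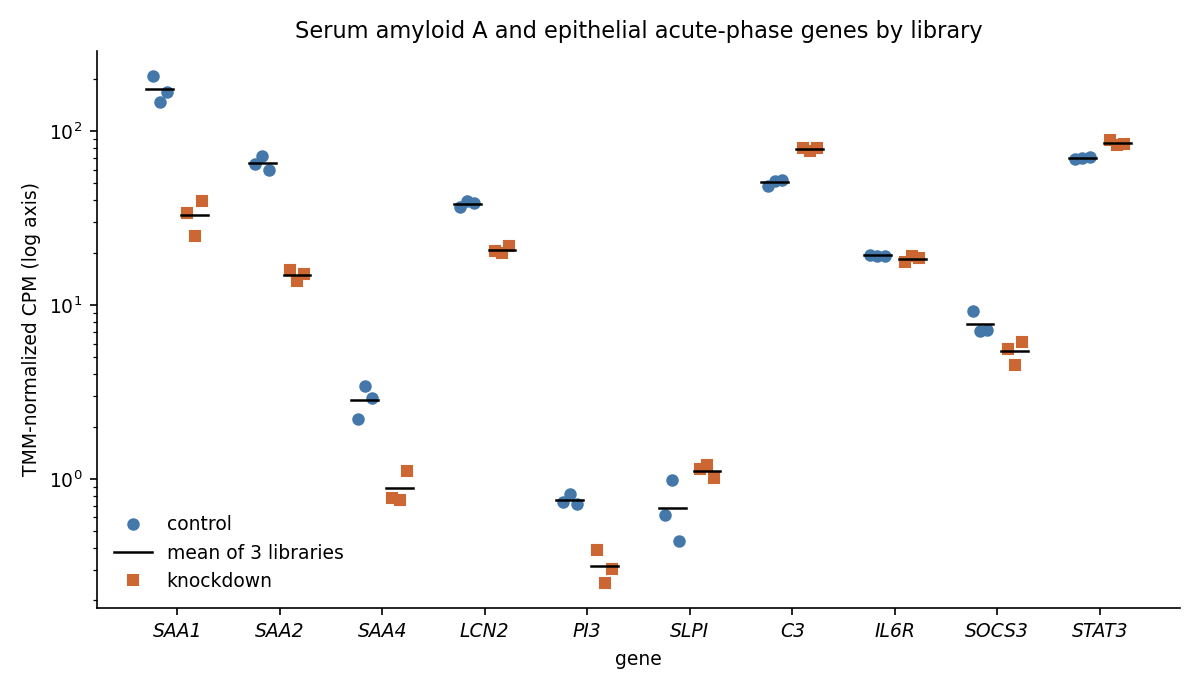
TMM-scaled CPM of the 10 members on a log axis, with circles for the 3 control libraries, squares for the 3 knockdown libraries and a bar for each group mean. SAA1 drops from a mean of 174 to 32.8 CPM and SAA2 from 65.5 to 14.8 CPM, C3 rises from 50.8 to 78.9 CPM, and the groups of IL6R alone overlap.

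LCN2, lipocalin-2 (ENSG00000148346, chr9:128149071-128153455, plus strand), was lower as well, by a smaller margin. It reached 36.5, 39.5 and 38.4 CPM in control and 20.5, 19.8 and 21.7 CPM in knockdown libraries. The coefficients of variation within the groups were 4.0% and 4.64%, and the groups were far apart. The mean went from 38.1 ± 1.53 to 20.7 ± 0.960 CPM, 54.3% of control (log2 fold change −0.88, SE 0.0751).

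PI3, or elafin (ENSG00000124102, chr20:45174876-45176544, plus strand), was a low transcript, with 19, 19 and 18 counts in control and 11, 7 and 9 counts in knockdown libraries. The groups did not overlap, at 0.758 ± 0.0520 and 0.315 ± 0.0693 CPM (log2 fold change −1.25, SE 0.375), but its call depended on single libraries, as described below. SLPI, the related secretory leukocyte protease inhibitor (ENSG00000124107, chr20:45252239-45254564, minus strand), went the other way, with 16, 23 and 11 counts in control and 32, 33 and 30 counts in knockdown libraries. In CPM these were 0.683 ± 0.280 and 1.11 ± 0.0963 (log2 fold change 0.71, SE 0.324), a difference that was not past the threshold although the groups did not overlap. The 2 protease inhibitors lie within the same cluster of WAP-domain genes on chromosome 20 and neither exceeded 33 counts in any library.

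C3 (ENSG00000125730, chr19:6677704-6730562, minus strand) was the acute-phase member that was higher with knockdown. Its level was 48.3, 51.5 and 52.6 CPM in control and 80.0, 77.2 and 79.7 CPM in knockdown libraries. All knockdown libraries stood above all control libraries, with means of 50.8 ± 2.27 and 78.9 ± 1.55 CPM, which is 155% of control (log2 fold change 0.64, SE 0.0615).

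The 3 members of the interleukin-6 pathway itself did not move as SAA1 and SAA2 did. IL6R, the ligand-binding receptor chain (ENSG00000160712, chr1:154405193-154469450, plus strand), was at 19.4, 19.2 and 19.2 CPM in control and 17.6, 19.2 and 18.7 CPM in knockdown libraries, and was the only member whose groups overlapped (log2 fold change −0.06, SE 0.0825). STAT3 (ENSG00000168610, chr17:42313324-42388568, minus strand) was higher in every knockdown library, at 88.8, 82.7 and 84.0 CPM against 69.3, 70.3 and 71.1 CPM in control. Its mean rose from 70.2 ± 0.879 to 85.2 ± 3.23 CPM, to 121% of control (log2 fold change 0.28, SE 0.0582). SOCS3, the feedback inhibitor that STAT3 induces (ENSG00000184557, chr17:78356778-78360077, minus strand), had 9.18, 7.09 and 7.14 CPM in control and 5.61, 4.53 and 6.15 CPM in knockdown libraries. The groups did not overlap, but control replicate 1 stood above the other control libraries, and the means of 7.81 ± 1.19 and 5.43 ± 0.822 CPM left 69.5% of control (log2 fold change −0.52, SE 0.144).

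In the fit across all genes, 8 of the 10 members were past the threshold of an adjusted p of 0.05, against 25.2% of all genes tested. Of these, 6 were lower (11.9% of all genes) and 2 higher (13.3%), while SLPI and IL6R were not called. The 4 members SAA1, SAA2, SAA4 and PI3 were lower by at least 1 on the log2 scale, as were 0.831% of all genes, and 9 had groups that did not overlap (38.8%). As the members were picked knowing this contrast, nothing is read from these shares. Over 11 to 13 alternatives per gene, the log2 fold change stayed between −2.57 and −2.25 for SAA1 and −2.32 and −2.07 for SAA2. The alternatives of SAA1 and SAA2 include the fit of the summed serum amyloid A rows. The lower end given for SAA2, −2.32, is the value of that sum and not of SAA2 alone. For SAA4 the log2 fold change stayed between −1.88 and −1.53 and for LCN2 between −0.92 and −0.85. The ranges were 0.60 to 0.68 for C3 and 0.24 to 0.32 for STAT3, and the calls of these 6 genes held in all alternatives run. PI3 was no longer past the threshold with DESeq2 (−1.27) or without control replicate 1 (−1.27), 2 (−1.20) or 3 (−1.29) or knockdown replicate 2 (−1.12) or 3 (−1.22). SOCS3 lost its call without control replicate 1 (−0.39), and SLPI was past the threshold without control replicate 2 (1.06).

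**Figure D2:**
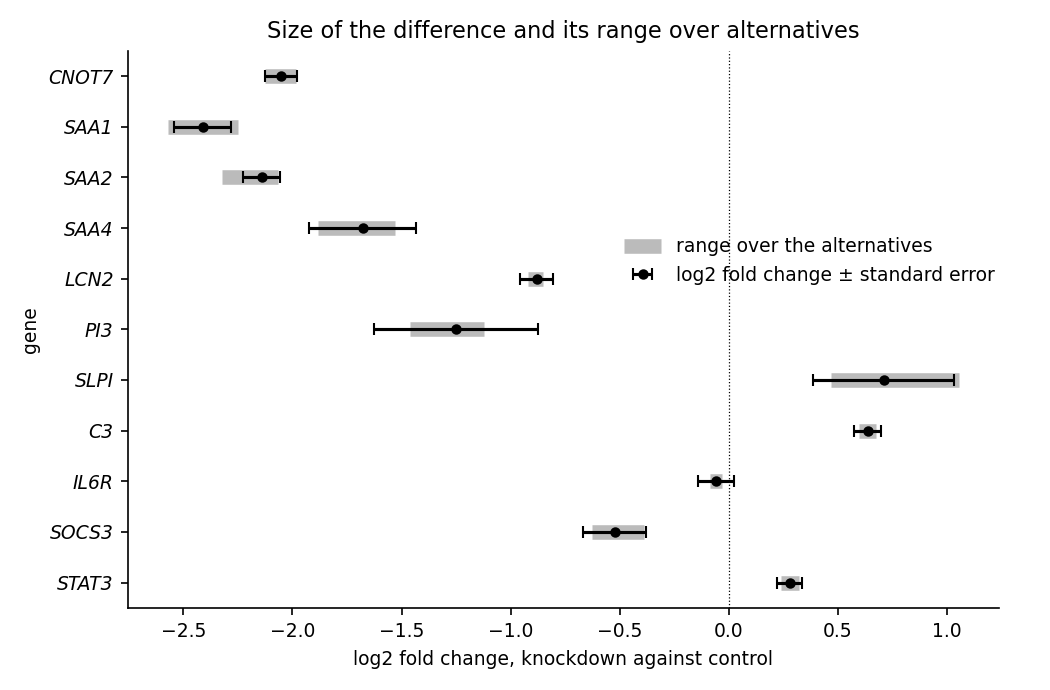
Log2 fold change of knockdown against control for CNOT7 and the 10 members, with points for the edgeR estimate, whiskers for its standard error and grey bands for the range over the alternatives. The bands of SAA1 and SAA2 include the value of the summed serum amyloid A rows, −2.32, which is the lower end of the SAA2 band. SAA1, SAA2 and SAA4 lie at −2.41, −2.14 and −1.68, C3 and STAT3 to the right of 0 at 0.64 and 0.28, and the band of SLPI runs from 0.47 to 1.06.

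Levels can be set side by side only per length, and CPM per kilobase of annotated exon was used for this. In control cells SAA1 reached 219 CPM per kb and ranked 101 of the 17574 tested genes, followed by SAA2 (29.4, rank 1502) and LCN2 (23.9, rank 1961). With knockdown SAA1 was still the highest member at 41.2 CPM per kb but ranked 897, LCN2 (12.95, rank 3701) came next, and SAA2 (6.67, rank 6423) had dropped below STAT3 (9.67) and C3 (9.48). STAT3 and C3 were at 7.97 and 6.10 CPM per kb in control cells, and their knockdown levels were closer to each other than the spread of the libraries. SAA4 (3.93), IL6R (2.99) and SOCS3 (2.86) followed in control cells, the last pair within the spread of SOCS3, and PI3 (1.31) and SLPI (1.15) were lowest and not separable. The annotated exons of SAA2 cover 2227 bases against 796 for SAA1, and a gene whose longer annotated exons are little used gets a lower level per kb.

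For SAA1 the 5 tested genes with the most similar course over the 6 libraries, by the root-mean-square difference of log2 CPM centred on the control mean, were CYR61 (0.258), SAA2 (0.325), OLR1 (0.348), CNOT7 itself (0.421) and VSTM1 (0.448). CYR61, a matricellular protein, went from 149 ± 7.08 to 23.2 ± 1.23 CPM, and OLR1, a receptor for oxidised low-density lipoprotein, from 7.71 ± 0.775 to 1.13 ± 0.148 CPM. For LCN2 they were GNG11 (0.0580), NPC2 (0.0597), INSIG1 (0.0628), ATF5 (0.0654) and MIR22HG (0.0696). NPC2, a lysosomal cholesterol carrier, went from 205 ± 10.6 to 116 ± 3.15 CPM, and INSIG1, which holds back sterol synthesis, from 83.7 ± 2.06 to 46.7 ± 1.41 CPM. These genes were found by their likeness in the same 6 libraries, so their differences are a description.

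Within 250 kb of the serum amyloid A locus 8 other genes were tested, and 1 of them passed the threshold, beside 25.2% of all genes tested. It was HPS5, a subunit of a complex for the biogenesis of lysosome-related organelles. HPS5 fell from 80.6 ± 3.29 to 66.4 ± 5.15 CPM (log2 fold change −0.28, SE 0.0666, edgeR adjusted p = 0.00504). LDHA, lactate dehydrogenase A, stood at 1548 ± 45.0 and 1560 ± 59.2 CPM, and SAAL1, named for its similarity to serum amyloid A, at 53.9 ± 3.02 and 52.3 ± 3.32 CPM. GTF2H1, TSG101, SERGEF, TPH1 and the pseudogene ST13P5, which lies between SAA2 and SAA1, were not called either. Around PI3 and SLPI 12 other genes were tested, with 1 called higher and 1 lower, beside 25.2% of all genes called in either direction. TOMM34, a mitochondrial import factor, rose from 109 ± 2.04 to 215 ± 2.23 CPM (log2 fold change 0.98, SE 0.0519, edgeR adjusted p = 6.08e-10) and PIGT, of the GPI transamidase, fell from 162 ± 2.05 to 139 ± 2.40 CPM (log2 fold change −0.22, SE 0.0517, edgeR adjusted p = 0.00418). WFDC2, the WAP-domain gene of this cluster with the highest level here, was at 26.0 ± 0.958 and 28.0 ± 2.13 CPM and was not called. Neither were PABPC1L, STK4, STK4-AS1, MATN4, SDC4, AL021578.1, SYS1, TP53TG5 and DBNDD2.

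**Figure D3:**
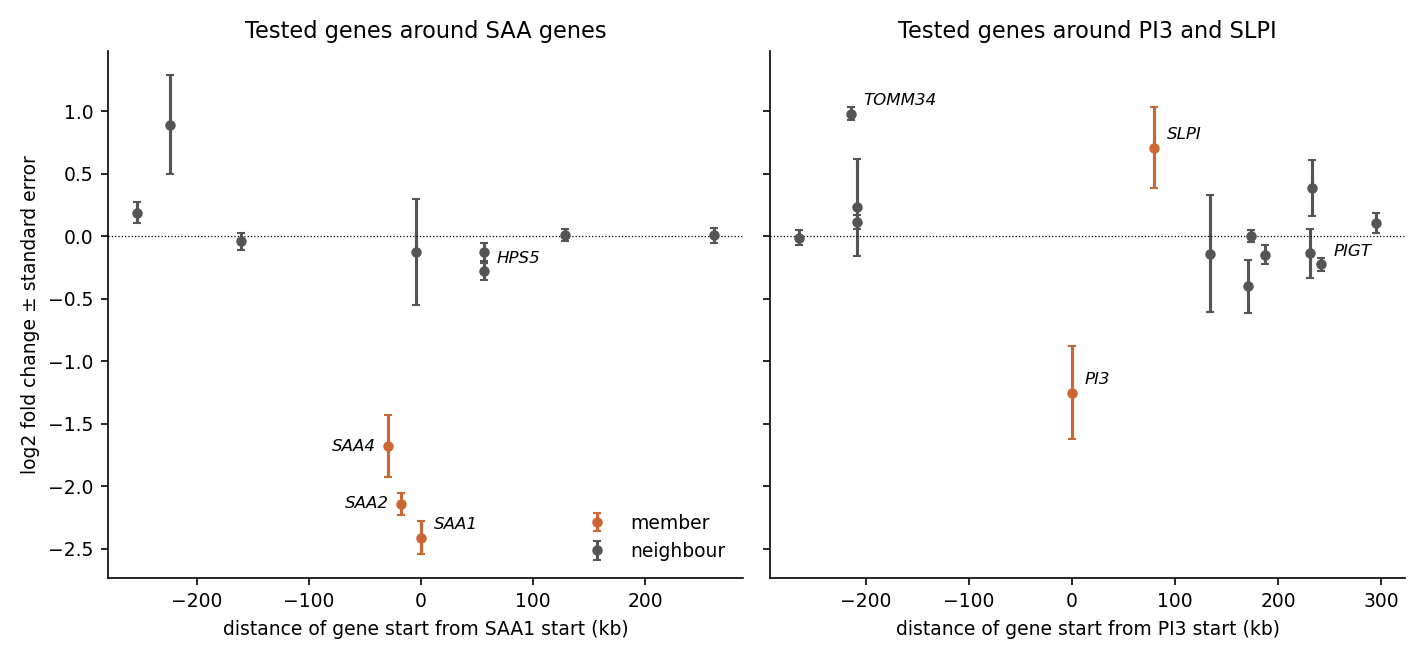
Log2 fold change with its standard error for each tested gene, against the distance of its start from that of SAA1 (left) or PI3 (right) in kb; members are orange and other genes grey. The 3 serum amyloid A genes lie between −2.41 and −1.68, whereas HPS5 at −0.28 is the neighbour furthest below 0 on the left.

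Promoter windows, from 250 bases before to 50 bases after a start site in RefSeq (GRCh38.p14), were at hand for SAA4, LCN2, IL6R, SOCS3 and STAT3. They were searched on both strands for the NF-κB consensus, TTCNNNGAA (STAT), TTGCNNAA (C/EBP) and TATAAA, and no match overlapped another. The LCN2 and SAA4 windows are shown because they held matches, printed in capitals. LCN2 (chr9:128149203-128149502, plus strand) had an NF-κB consensus match from −175 to −166, read on the opposite strand, and a C/EBP match from −143 to −136.
LCN2: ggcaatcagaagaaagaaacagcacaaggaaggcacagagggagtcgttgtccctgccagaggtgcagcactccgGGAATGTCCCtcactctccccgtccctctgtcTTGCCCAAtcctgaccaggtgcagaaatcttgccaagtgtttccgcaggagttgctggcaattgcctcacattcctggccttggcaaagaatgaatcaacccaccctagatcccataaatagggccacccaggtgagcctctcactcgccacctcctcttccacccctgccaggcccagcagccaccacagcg
SAA4 (chr11:18236753-18237052, minus strand) had 3 C/EBP matches, all on the opposite strand, which begin at −236, −69 and −54.
SAA4: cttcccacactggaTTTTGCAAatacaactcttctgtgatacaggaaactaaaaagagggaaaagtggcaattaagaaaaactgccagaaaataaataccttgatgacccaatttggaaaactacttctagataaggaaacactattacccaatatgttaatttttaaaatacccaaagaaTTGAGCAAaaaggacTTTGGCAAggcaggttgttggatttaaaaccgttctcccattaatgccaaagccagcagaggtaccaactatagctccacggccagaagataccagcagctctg
The windows of IL6R, SOCS3 and STAT3 held none of these letters. SOCS3 had 2 windows, chr17:78360876-78361175 and chr17:78359618-78359917 on the minus strand. Neither covers the annotated gene start at 78360077, so the bases just upstream of that start were not searched. The LCN2 window lies downstream of the annotated LCN2 gene start at 128149071, so the bases just upstream of that start were not searched either. Of all 35116 windows, 11.3% held the NF-κB consensus, 7.66% the STAT, 10.5% the C/EBP and 11.5% the TATAAA letters. A match is a description of the sequence and was not linked to binding here.

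AUUUA pentamers in a 3′ untranslated region are the core of AU-rich elements, which ZFP36 family proteins read when they bring the CCR4-NOT complex to an mRNA. The 7 secreted members, SAA1, SAA2, SAA4, LCN2, PI3, SLPI and C3, have short 3′ untranslated regions of 119 to 178 bases in their principal transcripts, without an AUUUA. IL6R had 6 in 4070 bases, STAT3 4 in 2421 bases and SOCS3 4 in 1640 bases, or 1.47, 1.65 and 2.44 per kb. Over 13424 genes the median was 1.5 per kb in a median length of 1044 bases, and 67.9% held at least 1. The longer UUAUUUAUU element was in no member and in 8.25% of the genes.

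The rest of the pathway was read from 17 lists of 279 distinct genes, of which 278 matched a single row and 164 were tested. SOD2, an NF-κB target, was left out because 2 rows carry its symbol. Of the tested genes 28 rose and 31 fell, beside 13.3% and 11.9% of all genes tested, and their median log2 fold change was 0.00, as for all genes (0.00). The same shares of all genes stand beside the count of each list below. Without knockdown replicate 1, 18 genes were lower. Low transcripts were shifted upward: tested genes under 5 CPM had a median log2 fold change of 0.15, with 12.9% higher and 3.24% lower, and those above it −0.03, with 13.4% and 16.5%. A fit that removes this trend with cyclic loess offsets brought the first median to −0.02. Under that fit 8.17% of the tested genes under 5 CPM were higher and 5.15% lower, and of the named rises only that of CSF1 lost its call. The part of this shift in the rises of low transcripts named below was not tested.

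Among the ligands, IL6 itself was all but absent, with 3 counts in 1 control library and 0 in the other 5. LIF, a ligand of the same family that signals through STAT3, fell from 60.3 ± 5.25 to 39.8 ± 3.24 CPM (log2 fold change −0.60, SE 0.0782, edgeR adjusted p = 2.36e-05). CLCF1, another such ligand, fell from 8.5 ± 1.5 to 5.01 ± 0.779 CPM (−0.76, SE 0.149, edgeR adjusted p = 0.00113). These were the 2 that passed among the 4 ligands tested. Of 11 receptors and kinases 4 rose and 1, RHBDF1, fell, and the number lower was 2 with RLE scaling, DESeq2, no filter or without control replicate 2, and 3 without knockdown replicate 2. CNTFR rose from 1.32 ± 0.173 to 3.18 ± 0.157 CPM, IL11RA from 5.07 ± 0.364 to 7.48 ± 0.820 CPM and JAK3 from 10.1 ± 0.567 to 15.2 ± 0.940 CPM (edgeR adjusted p = 1.44e-04, 0.00443 and 2.91e-04). IL6ST, the signalling chain gp130 shared by the family, was at 228 ± 14.0 and 201 ± 21.4 CPM and was not called, nor was JAK1 at 160 ± 8.14 and 163 ± 10.5 CPM. The receptors LIFR and OSMR were too low to be tested. LIFR had 1, 3 and 2 counts in control and 2, 1 and 1 counts in knockdown libraries.

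Of the other STAT factors 5 were tested: 0 were called by edgeR as reported or by DESeq2, 1 was called higher by edgeR with cyclic loess offsets, and 1 had an unadjusted p under 0.05. STAT6 was at 84.0 ± 6.0 CPM in control and 80.5 ± 5.88 CPM in knockdown cells. Inhibitors of JAK-STAT signalling gave 5 lower of 15 tested. SOCS1 fell from 2.66 ± 0.0557 to 1.16 ± 0.285 CPM (log2 fold change −1.19, SE 0.222, edgeR adjusted p = 7.76e-04), SOCS2 from 16.5 ± 0.334 to 12.4 ± 0.570 CPM and the phosphatase PTPN1 from 224 ± 4.63 to 182 ± 3.31 CPM (edgeR adjusted p = 0.00249 and 3.12e-04). SOCS5 and SOCS6 were the others, and the phosphatase PTPN11, which was not called, was at 348 ± 12.7 and 332 ± 11.1 CPM. Without control replicate 2, knockdown replicate 1 or knockdown replicate 3, 3 of 15 were lower.

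Listed STAT3 target genes split, with 4 of 21 higher and 7 lower and a median of −0.13. The survival gene BCL2L1 fell from 216 ± 17.2 to 141 ± 13.6 CPM (log2 fold change −0.62, SE 0.0716, edgeR adjusted p = 6.81e-06) and the cyclin gene CCND1 from 1908 ± 24.2 to 1624 ± 26.7 CPM (−0.23, SE 0.0432, edgeR adjusted p = 7.19e-04). MYC, in contrast, rose from 249 ± 5.56 to 325 ± 10.5 CPM (0.39, SE 0.0506, edgeR adjusted p = 2.52e-05), and IL10RA rose from 1.71 ± 0.374 to 3.0 ± 0.225 CPM (0.81, SE 0.203, edgeR adjusted p = 0.00717). MUC1 fell from 3.31 ± 0.451 to 2.1 ± 0.439 CPM (−0.66, SE 0.197, edgeR adjusted p = 0.0201), but its call was lost without control replicate 1 (−0.57), control replicate 3 (−0.65) or knockdown replicate 3 (−0.55).

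Among transcription factors that act on acute-phase promoters, 5 of 15 tested rose and 1, NFKBIZ, fell, which was 0 without control replicate 2 or 3 or knockdown replicate 1. The epithelial factors ELF3 and EHF rose from 11.1 ± 0.159 to 16.4 ± 1.49 CPM and from 19.5 ± 1.69 to 26.6 ± 2.14 CPM (edgeR adjusted p = 4.2e-04 and 0.00136). NFKB2, a subunit of NF-κB, rose from 110 ± 8.54 to 132 ± 8.73 CPM (edgeR adjusted p = 0.00791), CEBPB rose as well, and SP1 stood at 214 ± 6.92 and 213 ± 5.04 CPM.

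Of the NF-κB feedback and target genes 11 of 21 tested fell and 2 rose, with a median of −0.18. Of all genes tested 11.9% fell and 13.3% rose, and of those at 5 CPM and over 16.5% and 13.4%. BIRC3, an inhibitor of apoptosis, fell from 117 ± 5.85 to 63.8 ± 4.35 CPM (log2 fold change −0.87, SE 0.0645, edgeR adjusted p = 3.5e-08) and IER3 from 428 ± 2.41 to 375 ± 12.2 CPM (−0.19, SE 0.0486, edgeR adjusted p = 0.00783). The other 9 that fell were NFKBIA, NFKBIB, the neutrophil chemokines CXCL1, CXCL2, CXCL3 and CXCL8, IRF1, PLAU and IL32, and TNFAIP2, which was not called, stood at 287 ± 20.4 and 300.0 ± 27.1 CPM. MMP9, a matrix protease, rose from 9.67 ± 1.98 to 15.9 ± 0.754 CPM (0.72, SE 0.121, edgeR adjusted p = 3.18e-04) and CSF1 from 5.76 ± 1.01 to 8.05 ± 0.914 CPM (0.48, SE 0.141, edgeR adjusted p = 0.0190). The number of lower genes in this list rested on the libraries: it was 6 without control replicate 1, 7 without control replicate 2 or 3 or knockdown replicate 3, and 4 without knockdown replicate 1. IER3 lost its call with cyclic loess offsets (−0.12) and without knockdown replicate 1 (−0.18), and CSF1 with those offsets (0.39), without control replicate 2 (0.34) and without knockdown replicate 1 (0.39).

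Upstream of NF-κB, 4 of 24 tested genes of the interleukin-1, TNF, interleukin-17, interleukin-22 and Toll-like pathways rose and 1, TRAF6, fell, which was 0 without control replicate 3 or knockdown replicate 1. TLR5, the flagellin receptor, rose from 1.23 ± 0.0852 to 2.52 ± 0.297 CPM (log2 fold change 1.04, SE 0.213, edgeR adjusted p = 0.00167), TLR3 from 4.42 ± 0.496 to 6.78 ± 0.616 CPM (edgeR adjusted p = 0.00306), IRAK2 from 7.94 ± 0.876 to 11.1 ± 0.912 CPM (edgeR adjusted p = 0.00463) and the TNF receptor TNFRSF1B from 240 ± 12.1 to 307 ± 16.6 CPM (edgeR adjusted p = 1.79e-04). IRAK1, the kinase of the family with the highest level, was at 387 ± 26.5 and 349 ± 28.7 CPM and was not called.

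Of 23 other plasma proteins that rise in the acute-phase response, 7 were tested, with 3 higher and 2 lower, and 7 had 0 counts in all libraries, CRP among them. LRG1 rose from 3.57 ± 0.422 to 7.97 ± 0.969 CPM (log2 fold change 1.16, SE 0.144, edgeR adjusted p = 1.39e-05) and SERPING1, the C1 inhibitor, from 2.25 ± 0.624 to 4.55 ± 0.656 CPM (1.02, SE 0.195, edgeR adjusted p = 8.75e-04). SERPINA1, alpha-1 antitrypsin, fell from 316 ± 3.76 to 265 ± 8.79 CPM (−0.25, SE 0.0499, edgeR adjusted p = 0.00118), as did FN1. The acute-phase transcripts measured here thus moved in both directions, and none of the 9 listed proteins that fall in the response had counts enough to be tested.

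Of 35 antimicrobial genes of epithelia 3 passed the filter on low counts, and 11 were at 0 in all libraries. NOS2, inducible nitric oxide synthase, rose from 11.5 ± 0.526 to 23.4 ± 0.675 CPM (log2 fold change 1.03, SE 0.0866, edgeR adjusted p = 1.67e-07), while ANG was at 1.28 ± 0.242 and 1.89 ± 0.324 CPM. Of 4 other WAP-domain genes tested, 0 were called by edgeR or DESeq2 and 0 had an unadjusted p under 0.05, WFDC3 being at 3.55 ± 0.0941 and 3.83 ± 0.331 CPM. Among lipocalins and LCN2 partners 2 of 5 rose, and both were receptors that take up LCN2. LRP2 (megalin) rose from 2.56 ± 0.452 to 6.57 ± 0.951 CPM (1.36, SE 0.167, edgeR adjusted p = 1.28e-05) and SLC22A17 from 4.47 ± 1.25 to 7.12 ± 0.877 CPM (0.67, SE 0.170, edgeR adjusted p = 0.00794).

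Of the complement components other than C3, 8 were tested: 0 were called by edgeR as reported or by DESeq2, 1 was called higher when at least 10 counts were required in every library, and 1 had an unadjusted p under 0.05. C5 was at 8.19 ± 1.19 and 7.73 ± 1.62 CPM, and CFD, factor D, at 8.45 ± 0.801 and 8.45 ± 0.999 CPM. Among 9 regulators and receptors of complement 3 rose, all of them receptors for C3 fragments at low levels: ITGAX from 1.68 ± 0.324 to 3.72 ± 0.857 CPM, CR2 from 1.85 ± 0.336 to 3.95 ± 0.551 CPM and ITGAM from 0.966 ± 0.213 to 1.83 ± 0.175 CPM (edgeR adjusted p = 7.33e-04, 3.86e-04 and 0.0120). These receptors are known from leukocytes, and the summed leukocyte markers given above moved the same way, and their part in these rises was not tested. CD46 and CLU, the regulators with the highest levels, were at 435 ± 27.7 and 488 ± 39.4 CPM and at 140 ± 2.81 and 144 ± 4.36 CPM and were not called. ITGAM lost its call without control replicate 1 (0.76).

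Of 5 tested receptors and partners of serum amyloid A, P2RX7, an ATP-gated channel, rose from 2.38 ± 0.508 to 4.28 ± 0.0836 CPM (log2 fold change 0.85, SE 0.174, edgeR adjusted p = 0.00161). SELENOS fell from 26.1 ± 1.42 to 22.4 ± 0.956 CPM (−0.22, SE 0.0792, edgeR adjusted p = 0.0485), a call that was lost in 7 alternatives, among them the fits without control replicate 1 (−0.26), 2 (−0.23) or 3 (−0.18) or knockdown replicate 1 (−0.21) or 3 (−0.22). SCARB1, a lipoprotein receptor that binds serum amyloid A, was at 107 ± 4.83 and 114 ± 6.04 CPM. RNA-binding regulators of cytokine mRNAs, such as the ZFP36 and roquin families, gave 0 calls by edgeR as reported or by DESeq2 among 10 tested, with 2 at an unadjusted p under 0.05, and 1 lower without a filter or without control replicate 2 and 2 without knockdown replicate 3. ZFP36L1 was at 324 ± 10.7 and 325 ± 5.25 CPM and KHSRP at 280 ± 17.9 and 251 ± 22.9 CPM.

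**Figure D4:**
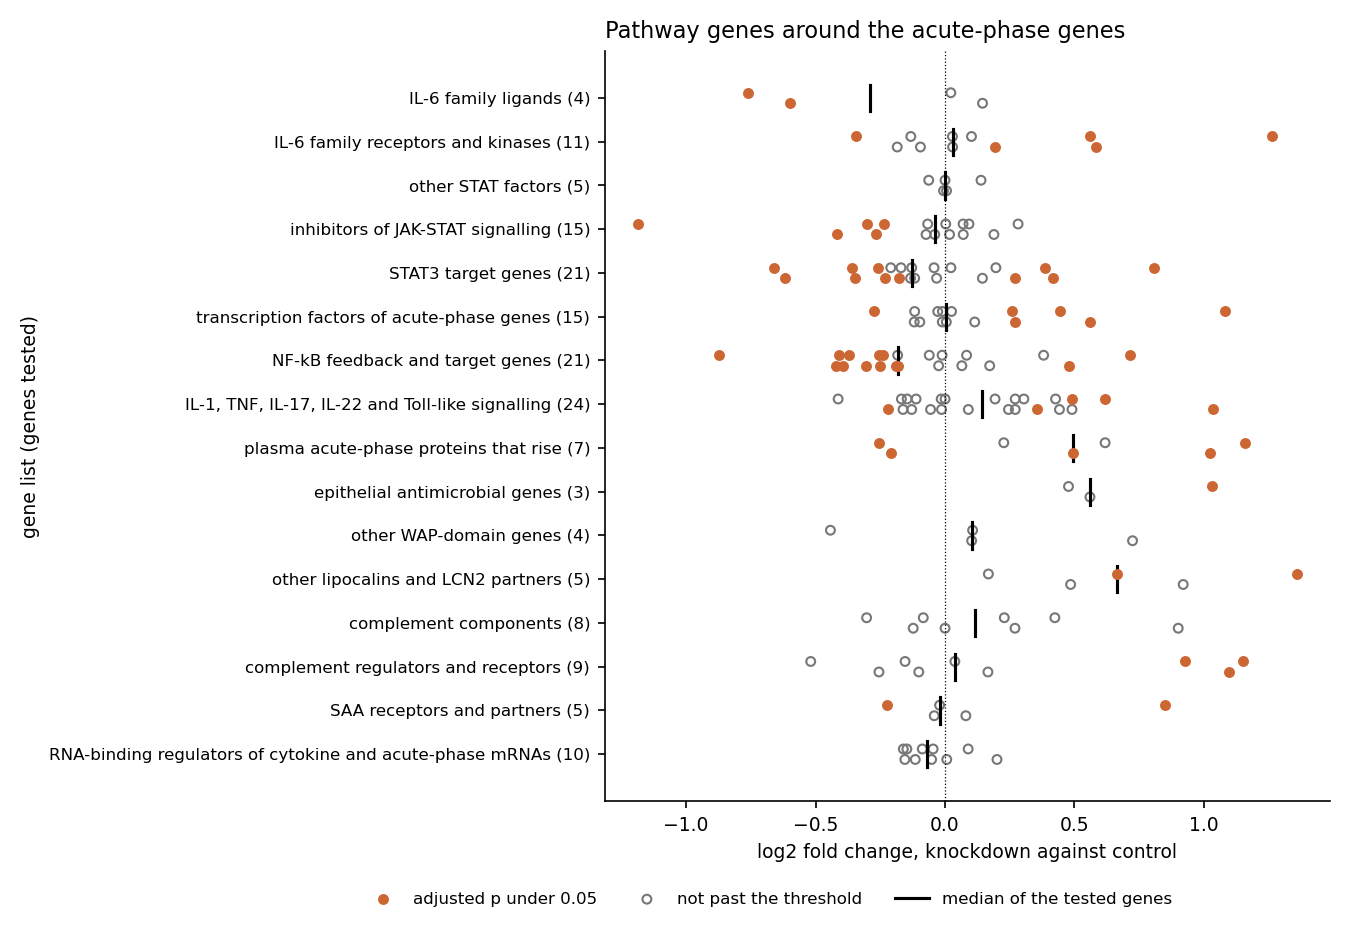
Log2 fold change of every tested gene in 16 pathway lists (the number tested in brackets), with filled points for an adjusted p under 0.05, open points for the rest and a bar for the median of each list. NF-κB feedback and target genes hold 11 filled points below 0 and 2 above it, beside 11.9% and 13.3% of all genes tested. The other STAT factors and RNA-binding regulators hold none.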

How the data were processed

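Gene counts of 6 RNA-seq libraries were used, 3 per group, with groups taken from the labels. The authors extracted total RNA with TRIzol, built libraries with a NEBNext Ultra kit and deposited raw read counts per gene without normalization. The submitters' processing notes name CASAVA 1.8, fastp, HISAT2 2.0.5, featureCounts 1.5.0-p3, DESeq2 1.20.0 and GRCh38. Read length and the strand setting of the counting are not given in the sources used here. All 58735 gene identifiers and positions matched GENCODE release 29.

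Counts were filtered with filterByExpr, scaled by TMM and compared with the quasi-likelihood test of edgeR 4.0.16 (R 4.3.3), adjusted by Benjamini-Hochberg over 17574 genes, threshold 0.05. On simulated data of the same size the fit recovered 37 of 67 genes changed by 0.5 on the log2 scale, 60 of 67 changed by 1 and 63 of 66 changed by 2, with 15 false calls of 17093. The simulation held 200 changed genes, far fewer than were called in the real data, and no shift of low transcripts. Its rates may therefore not hold for the real data. CPM are given as mean ± SD of 3 libraries. The members and gene lists were chosen with earlier results of these data known. Named genes were the members, CNOT7, SAA2-SAA4, SAA3P, in each list up to 3 called genes with the largest log2 fold change and the 2 with the highest CPM, the 5 genes most like SAA1 and LCN2 (log2 of CPM plus 0.5) and tested genes within 250 kb of the serum amyloid A genes and of PI3 and SLPI. Other genes of a list are named where they complete a count, after their values were seen. Values of some genes that the rule names are not reported here. Alternatives were RLE scaling, DESeq2 1.42.0, other filters on low counts, the replicate number as a block, cyclic loess offsets (limma 3.58.1), each library left out and the serum amyloid A rows summed. Sequences came from GENCODE and RefSeq (Python 3.11.15).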

Additional observations from a re-analysis of the deposited data

How the results depend on the processing

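In all alternatives CNOT7, SAA1, SAA2, SAA4, LCN2, C3 and STAT3 kept their direction and their side of the threshold, and IL6R stayed outside it. Leaving out 1 library at a time gave 2 to 3 members higher and 4 to 6 lower. Over all genes, 2329 were higher and 2095 lower; leaving out 1 library gave 1626 to 2323 and 1367 to 2219, the lowest lower count without control replicate 3. DESeq2 gave 1992 and 2106, no filter 2201 and 2342, and cyclic loess offsets 2183 and 1841. With the replicate number as a block, 3202 genes were higher and 3306 lower. Deviations of same-numbered libraries correlated at 0.0228, 0.153 and −0.0153, and those of differently numbered libraries at −0.151 to 0.132. Whether a shared number marks a shared culture or day is not stated in the labels and was not tested. The block changed no call of a member. It called 1 other STAT factor higher and, in the lower direction, 3 receptors and kinases and 3 RNA-binding regulators. The listed pathway genes that were lower, 31 in the reported fit, numbered 18 to 31 with 1 library left out, the lowest without knockdown replicate 1. The cause of these differences was not tested. PI3 could not be tested with at least 10 counts required in every library. With 3 libraries per group, PI3, SLPI and SAA4 rest on fewer than 100 counts each per library, and their differences are the least precise among the members.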
